A study of Arabidopsis thaliana with 8 samples.

Results

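In seedlings of Arabidopsis thaliana, 138 genes met a rule that asked for a larger difference from wild type in the sdg8 sdg26 double mutant than in either single mutant. Of these, 86 were higher and 52 lower in the double mutant. They were drawn from 25383 genes with a probe on the array, by values measured in all 8 samples. In the authors' deposited log2 table, each gene was read from the probe with its highest mean over the arrays. A gene was kept where the double mutant differed from wild type by at least 1 on the log2 scale and where sdg8 and sdg26 each differed from wild type by under 0.5. Both double-mutant arrays also had to lie beyond all 6 other arrays, and the probe had to be well above background on both arrays of wild type or of the double mutant. Of the 25383 genes, 2113 passed the size in the double mutant, 291 of these also passed the limit on the single mutants, 186 also lay beyond the other arrays, and 138 also passed the background flag.

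The groups were sdg8 sdg26, sdg8, sdg26 and wild type (Col), with 2 single-colour Agilent arrays each. RNA came from aerial tissue of seedlings aged 6 days, grown at 22 °C with 16 h of light and 8 h of darkness, and all groups shared these conditions. The mutant alleles are not given in the sources used here, and each mutant stands for the line it was taken from. The series text speaks of 3 RNA sets per genotype in each of 2 experiments without tying an array to a set. A p-value therefore covers the spread between arrays alone, and that spread may be technical.

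SDG8, also called EFS, and SDG26, also called ASHH1, encode SET-domain proteins of one family that methylate lysines of histone H3, a mark found along transcribed genes. SDG8 is known for keeping the floral repressor FLC active, so that its mutants flower early, whereas mutants of SDG26 flower late. A double mutant of such related enzymes lets one ask which transcripts keep near their usual level while either enzyme is present.

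Levels below are log2 of the background-subtracted signal, scaled by subtracting each array's 75th percentile, so that 0 is the brightness of that percentile. They describe 1 probe over the 8 arrays and are not compared between genes. The targeted genes went with the labels: SDG8 was at -2.71 and -2.95 in sdg8 sdg26 and at -3.59 and -3.22 in sdg8, against -0.38 and -0.49 in sdg26 and -0.63 and -0.36 in wild type. SDG26 was at -4.0 and -5.0 in sdg8 sdg26 and at -5.40 and -5.98 in sdg26, against -1.07 and -1.0 in sdg8 and -1.09 and -1.04 in wild type. The 28 photosynthesis genes listed as a check of green tissue were all measured, with mean levels of 4.27 to 4.94 over the arrays. In whole aerial tissue, fewer cells of a type and less RNA per cell cannot be told apart.

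Sizes are given by how well the gene was measured in wild type. Among the 43 higher genes well above background on both wild-type arrays, the median difference, sdg8 sdg26 minus wild type, was 1.12 and the highest 1.90, and 5 had at least 1.5 and 0 at least 2. All 52 lower genes were measured in wild type, with a median of -1.11, a lowest of -1.78 and 3 of at least 1.5 in size. The other higher genes, 17 measured on 1 wild-type array and 26 on neither, entered through the double mutant, where they are high. Of the 10 higher genes at 2 or more, 8 were on neither wild-type array well above background, so that their log2 differences are not set against those of the lower genes. The median over all 20620 genes tested was 0.03. These values chose the genes and are a description. The excess of higher genes depended on the scaling and on single arrays: 64 higher and 65 lower genes met the rule after quantile normalization, 42 and 77 with normexp background correction on the array's median background and 16 and 35 with it on the local background. Without sdg8 sdg26 replicate 2 there were 307 higher and 34 lower genes, and without replicate 1 there were 138 and 152. The direction of each of the 138 genes was kept in quantile and both normexp values. Its size was counted as moved in 20 genes with quantile normalization. With normexp it was so in 83 on the array's median background and in 100 on the local background. The genes were chosen for large differences on these same arrays, so the kept direction is no check of them. The same rule with sdg8 as the genotype that differed found 70 genes, 14 higher and 56 lower, and with sdg26 it found 18 genes, 18 higher and 0 lower.

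In the single mutants the differences from wild type were small by the rule's own limit. Their medians were 0.165 in sdg8 and 0.20 in sdg26 among the higher genes, and -0.28 in sdg8 and -0.165 in sdg26 among the lower genes. All 3 mutants are set against the same 2 wild-type arrays, so an error there enters each difference, and signs shared between them are not counted. The interaction, which is the double-mutant difference minus the sum of both single-mutant differences, had a median of 1.1 in the higher and -0.80 in the lower genes and the sign of the double-mutant difference in all 138, as the limits of 1 and 0.5 require. In AT5G52980, where the sum came close, the difference was 1.02 ± 0.15 (SE) in sdg8 sdg26, 0.47 in sdg8 and 0.39 in sdg26, an interaction of 0.16. In AT3G01345, where the single mutants leaned the other way, it was 1.24 ± 0.20 in sdg8 sdg26, -0.19 in sdg8 and -0.45 in sdg26, an interaction of 1.88.

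**Figure D1:**
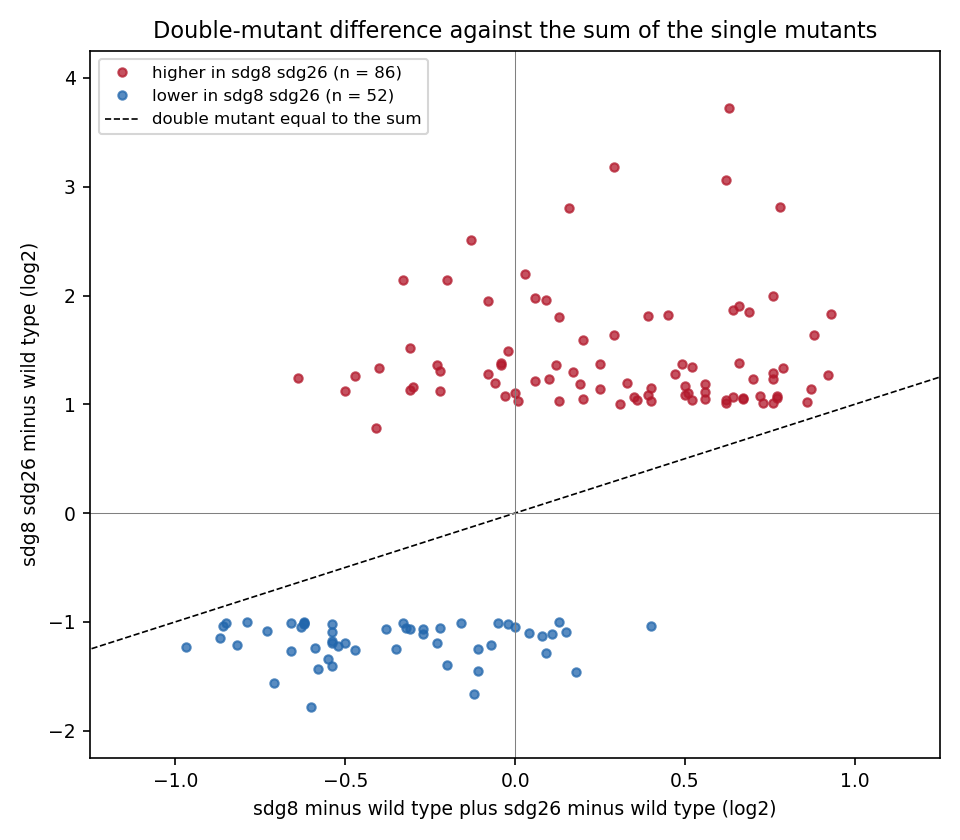
Difference of sdg8 sdg26 from wild type (log2, vertical) against the sum of the sdg8 and sdg26 differences (log2, horizontal), 1 point per gene. The 86 higher genes lie above the dashed line of equality and the 52 lower genes below it, which the limits of the rule fix.

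In limma's fit over all 8 arrays with Benjamini-Hochberg adjustment, 80 of the 138 genes passed 0.05 for sdg8 sdg26 against wild type, where 6.26% of the 20620 genes tested did so (3.06% higher, 3.19% lower). These 80 comprised 48 higher and 32 lower genes. Against sdg8, 11 of the 138 passed beside 0.281% of all genes (0.204% higher, 0.0776% lower), and against sdg26, 37 passed beside 2.21% (0.718% higher, 1.49% lower). For the interaction 0 of the 138 passed in limma, beside 0.00485% of all genes, and 65 of the 138 had an unadjusted p under 0.05, beside 925 (4.49%) of all genes. Since the rule used each of these contrasts, nothing is read from the counts.

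The arrays were spread over 4 slides, with sdg8 sdg26 and sdg26 together on the fourth, sdg8 on the third and the wild-type arrays on the first and second. Only the double mutant and sdg26 can therefore be compared within a slide, and there the median difference was 1.08 for the higher and -0.98 for the lower genes. The smallest was 0.56 in size. The difference from sdg8, between slides, had medians of 1.26 and -0.94. The limits of the rule fix the sign and a least size of the differences from both single mutants. These values are therefore a description, and the comparison within a slide is no check of the genes.

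The largest difference was in AT1G78400, a gene with no symbol in the RefSeq table. It had levels of -5.36 and -3.72 in sdg8 sdg26, against -8.10 and -8.12 in sdg8, -7.48 and -8.09 in sdg26 and -8.79 and -7.75 in wild type. Its probe was well above background only in the double mutant, so that the difference is a bound, at least 3.79-fold higher than in wild type. The bound takes, for each dim array, the lowest signal among probes that were well above background there if that is higher than the probe's own.

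AT1G30170 had levels of -5.53 and -5.14 in sdg8 sdg26, against -8.21 and -7.92 in sdg8, -8.65 and -8.73 in sdg26 and -8.93 and -8.12 in wild type, and was at least 2.18-fold higher than in wild type. GASA3, a gene of the gibberellin-regulated GASA family of small cysteine-rich peptides, had levels of -4.10 and -6.10 in sdg8 sdg26, against -8.25 and -7.58 in sdg8, -8.60 and -6.96 in sdg26 and -8.20 and -8.11 in wild type. It was at least 2.58-fold higher than in wild type. The double-mutant arrays of GASA3 lay far apart, and the sdg26 arrays did so too, without overlap between the genotypes.

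AT3G06895 was detected in every genotype on at least 1 array. Its levels were -2.93 and -3.05 in sdg8 sdg26, against -6.02 and -5.81 in sdg8, -5.73 and -5.26 in sdg26 and -5.38 and -6.19 in wild type, a difference from wild type of 2.80 ± 0.28 (SE, n = 2 arrays each). Its double-mutant arrays lay close together and far above the other 6. AT3G51360 was at least 1.5-fold and AT4G08730 at least 1.30-fold higher than in wild type, with double-mutant levels of -6.00 and -5.77 and of -5.85 and -6.32.

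AT5G23240, which encodes the J-domain chaperone protein DJC76, had levels of -3.30 and -4.66 in sdg8 sdg26, against -6.83 and -5.85 in sdg8, -6.12 and -5.86 in sdg26 and -5.94 and -6.42 in wild type (difference 2.20 ± 0.49). Of the other largest differences, AT5G46670 was at least 1.05-fold, AT5G47740 at least 3.44-fold and AT1G26921 at least 1.59-fold higher than in wild type. AT1G06923 had 1.98 on the log2 scale but no bound above 1, since its levels of -6.62 and -6.51 in sdg8 sdg26 were on average no higher than the dimmest signals called well above background on the wild-type arrays. MEE38 showed a smaller but tight difference of 1.8 ± 0.15, with levels of -1.82 and -1.68 in sdg8 sdg26, against -3.42 and -3.63 in sdg8, -3.48 and -3.43 in sdg26 and -3.72 and -3.39 in wild type.

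**Figure D2:**
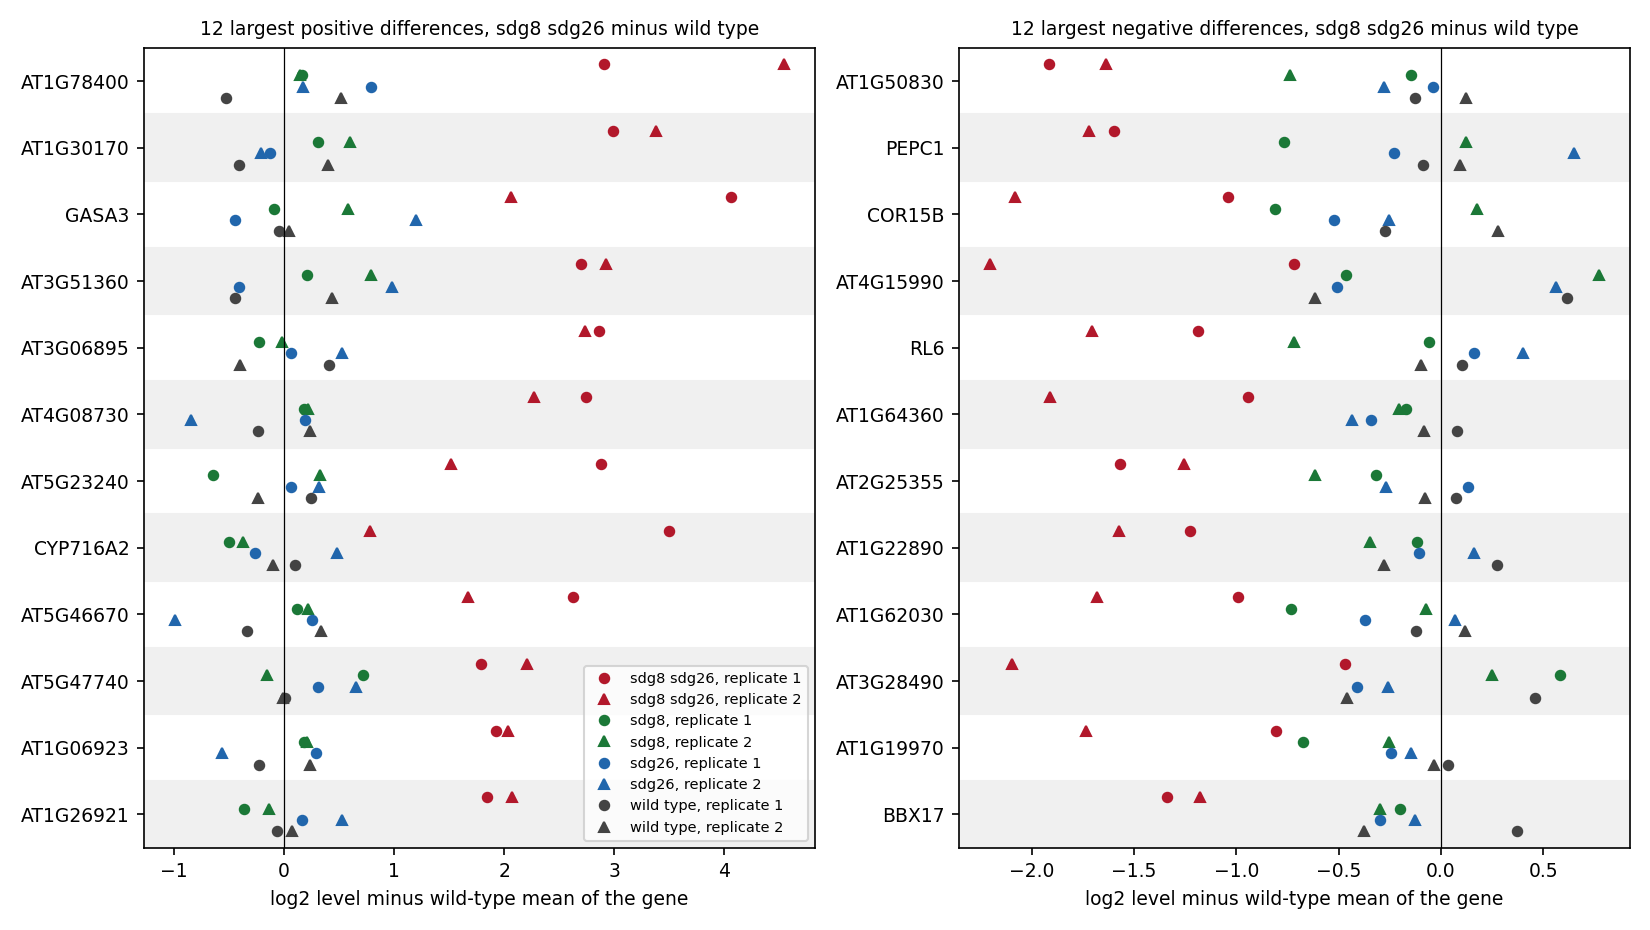
Levels (log2) on each of the 8 arrays minus the wild-type mean of the gene, for the 12 largest positive (left) and 12 largest negative (right) differences of sdg8 sdg26. Circles are replicate 1 and triangles replicate 2. The double-mutant points lie beyond the other 6, as the rule requires, by 2.39 in AT1G30170 and by as little as 0.01 in AT3G28490 and 0.10 in AT4G15990.

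Among the lower genes the largest difference was in AT1G50830, with levels of -5.14 and -4.86 in sdg8 sdg26, against -3.37 and -3.96 in sdg8, -3.26 and -3.50 in sdg26 and -3.35 and -3.10 in wild type (-1.78 ± 0.23). PEPC1, a phosphatase acting on phosphoethanolamine and phosphocholine and known for induction under phosphate starvation, had levels of -4.34 and -4.46 in sdg8 sdg26, against -3.51 and -2.62 in sdg8, -2.97 and -2.09 in sdg26 and -2.83 and -2.65 in wild type (-1.66 ± 0.36). The double-mutant arrays of both genes were close together, and those of the single mutants spread more widely for PEPC1.

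COR15B, a cold-regulated chloroplast protein that protects membranes on freezing, had levels of -2.90 and -3.94 in sdg8 sdg26, against -2.67 and -1.68 in sdg8, -2.38 and -2.11 in sdg26 and -2.13 and -1.58 in wild type (-1.56 ± 0.44). Replicate 1 of sdg8 sdg26 lay only a little below the nearest other array, replicate 1 of sdg8. AT1G22890 had levels of -0.91 and -1.26 in sdg8 sdg26, against 0.20 and -0.03 in sdg8, 0.21 and 0.48 in sdg26 and 0.59 and 0.04 in wild type (-1.40 ± 0.23). AT4G15990 (-1.46 ± 0.69) and AT3G28490 (-1.29 ± 0.53) had the widest spread of these 12, with double-mutant arrays 1.49 and 1.63 apart.

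Of the 138 genes, 48 had a role that could be given from their names, and these are described by role. Transcription regulators numbered 10, with 5 higher and 5 lower. WRKY48, a stress-induced WRKY factor, had levels of -3.27 and -3.02 in sdg8 sdg26, against -3.90 and -3.77 in sdg8, -3.98 and -3.82 in sdg26 and -4.37 and -4.09 in wild type (1.08 ± 0.16). DREB2B, a factor of drought and heat responses, was at -5.17 and -5.29 in sdg8 sdg26, against -6.51 and -6.41 in wild type, where it was not well above background, and was at least 2.07-fold higher. The B-box protein BZS1 (1.17 ± 0.30), the homeodomain factor HB20 (1.38 ± 0.31) and the MADS-box factor AGL64 (1.52 ± 0.43) were the other higher regulators.

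The lower regulators were TCP17, NGA1, RL6, BBX17 and HSFA6A. TCP17, of the TCP class that limits cell proliferation in leaves, had levels of -2.29 and -1.99 in sdg8 sdg26, against -1.20 and -1.15 in sdg8, -1.28 and -1.25 in sdg26 and -0.87 and -1.03 in wild type (-1.19 ± 0.14). NGA1, a NGATHA factor of leaf and carpel growth, had levels of -1.09 and -1.20 in sdg8 sdg26, against -0.47 and -0.68 in sdg8, -0.31 and -0.10 in sdg26 and -0.20 and -0.04 in wild type (-1.02 ± 0.14). RL6, a small MYB-like protein of the RADIALIS group, had levels of -3.33 and -3.85 in sdg8 sdg26, against -2.20 and -2.86 in sdg8, -1.98 and -1.74 in sdg26 and -2.04 and -2.24 in wild type (-1.45 ± 0.27). In TCP17 the 6 other arrays lay within a narrow range, and in NGA1 sdg8 lay between the double mutant and the rest. The B-box protein BBX17 (-1.26 ± 0.24) and the heat stress factor HSFA6A (-1.11 ± 0.36) were also lower, and HSFA6A differed from wild type by 0.46 in sdg8 and by -0.35 in sdg26. Of 20 TCP factors tested limma called 1 higher and 2 lower, with a median difference of 0.07. Of 4 NGATHA factors it called 0 higher and 1 lower (median -0.48), and of 28 B-box proteins 0 higher and 1 lower (median -0.18).

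Stress, chaperone and redox proteins numbered 9, of which 8 were higher and COR15B was lower, where 86 of all 138 genes were higher. The lower heat stress factor HSFA6A was placed with the regulators. No share was made over all such genes, so nothing is read from the count. HSP23.6-MITO, a small heat shock protein of mitochondria, had levels of -2.67 and -4.63 in sdg8 sdg26, against -5.32 and -5.06 in sdg8, -5.28 and -5.23 in sdg26 and -5.85 and -5.25 in wild type (1.90 ± 0.57). Replicate 1 made most of that difference. BCS1, an ATPase of the outer mitochondrial membrane also named OM66, had levels of -1.54 and -1.36 in sdg8 sdg26, against -2.22 and -2.29 in sdg8, -2.41 and -2.10 in sdg26 and -2.92 and -2.51 in wild type (1.27 ± 0.18). Both single mutants lay 0.46 above wild type in this gene, so its sum came close to the double-mutant difference.

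The thioredoxin TH7, one of the proteins that reduce disulphide bonds, had levels of -2.96 and -3.76 in sdg8 sdg26, against -4.99 and -4.94 in sdg8, -4.76 and -4.77 in sdg26 and -4.97 and -4.74 in wild type (1.49 ± 0.25). CXXS2, a thioredoxin-like protein, was at least 1.56-fold higher than in wild type. Among tau-class glutathione S-transferases, which join glutathione to toxic compounds, GSTU22 was higher by 1.33 ± 0.32 and GSTU14 by 1.15 ± 0.23. Of the 25 genes of this class tested, limma called 3 higher, GSTU22 not among them, and 2 lower. The median difference of the class was 0.04. The calmodulin-like CML41 was higher by 1.05 ± 0.29, with -0.26 in sdg8 and 0.46 in sdg26.

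Enzymes of specialised metabolism numbered 8, with 4 higher and 4 lower. PEN1 and BARS1, which close the rings of triterpenes, were at -5.12 and -5.39 and at -4.39 and -5.70 in sdg8 sdg26, against -6.20 and -6.53 and against -6.52 and -6.12 in wild type (1.1 ± 0.19 and 1.28 ± 0.42). CYP716A2, a cytochrome P450 of a family that oxidises triterpenes, had levels of -3.63 and -6.35 in sdg8 sdg26, against -7.63 and -7.50 in sdg8, -7.39 and -6.65 in sdg26 and -7.03 and -7.23 in wild type, and was at least 2.78-fold higher than in wild type on the mean of arrays 2.72 apart. GulLO2, a gulonolactone oxidase, was at least 2.07-fold higher.

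On the lower side, 4CL5, a ligase that activates coumarate for phenylpropanoids, had levels of -2.73 and -2.33 in sdg8 sdg26, against -1.45 and -1.45 in sdg8, -1.31 and -1.61 in sdg26 and -1.15 and -1.53 in wild type (-1.19 ± 0.20). PMAT2, which adds malonyl groups to phenolic glucosides, differed by -1.23 ± 0.33, the acyltransferase AACT1 differed by -1.04 ± 0.25 and the cytochrome P450 CYP96A1 by -1.01 ± 0.18. In PMAT2 both single mutants lay near the limit of the rule, at -0.47 in sdg8 and -0.50 in sdg26.

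Proteins of growth, cell wall and hormone action numbered 7, with 4 higher and 3 lower. EXPA16, an expansin, which loosens cell walls, had levels of -1.08 and -1.86 in sdg8 sdg26, against -3.01 and -2.45 in sdg8, -2.74 and -2.48 in sdg26 and -2.85 and -3.36 in wild type (1.64 ± 0.32). GASA3 is given above. AT5G20810, named SAUR70 after the small auxin-induced RNAs, was higher by 1.36 ± 0.59 with double-mutant arrays 2.11 apart, and AT2G32280, known as VCC and acting in vein patterning, was higher by 1.01 ± 0.15.

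AMI1, an amidase that can make auxin from indole-3-acetamide, had levels of -1.44 and -1.43 in sdg8 sdg26, against -1.05 and -0.77 in sdg8, -0.57 and -0.49 in sdg26 and -0.28 and -0.54 in wild type (-1.02 ± 0.15). It followed an order in which sdg8 lay between the double mutant and the other genotypes. RTFL15, of the ROTUNDIFOLIA-like small peptides, differed by -1.11 ± 0.16 and lay apart in sdg26 too, at -0.49, while it was at 0.22 in sdg8. UGE3, an epimerase that supplies UDP-galactose, differed by -1.01 ± 0.15.

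Transporters numbered 4. The sucrose carrier SUT4 (1.03 ± 0.21), the auxin carrier ABCB4 (1.07 ± 0.18) and UMAMIT34, of a family that carries amino acids (at least 1.27-fold higher), were above wild type. AAP4, an amino acid permease, had levels of -0.39 and -0.21 in sdg8 sdg26, against 0.51 and 0.45 in sdg8, 0.65 and 0.69 in sdg26 and 0.67 and 0.86 in wild type (-1.07 ± 0.13). Its 6 other arrays all lay well above the double-mutant pair.

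Phosphate, acyl and starch metabolism gave 4 genes: the soluble pyrophosphatase PPa3 (1.23 ± 0.29) and PWD, named for a dikinase that phosphorylates starch (1.05 ± 0.25), were higher, and PEPC1 and the acyl-activating enzyme AAE5 (-1.05 ± 0.12) were lower. Of 3 receptor kinases, the lectin receptor kinase AT3G45420, or LecRK-I.4 (1.09 ± 0.20), and SRF2 of the STRUBBELIG family (1.03 ± 0.25) were higher and LECRKA4.3 (-1.06 ± 0.34) was lower. MEF9 (1.16 ± 0.27) and SLG1 (1.19 ± 0.26), both needed for editing of mitochondrial transcripts, were higher, and DRB3, which binds double-stranded RNA, was lower (-1.08 ± 0.17). The remaining 90 genes were given no role, and they include 9 of the 12 largest positive differences and 8 of the 12 largest negative ones.

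**Figure D3:**
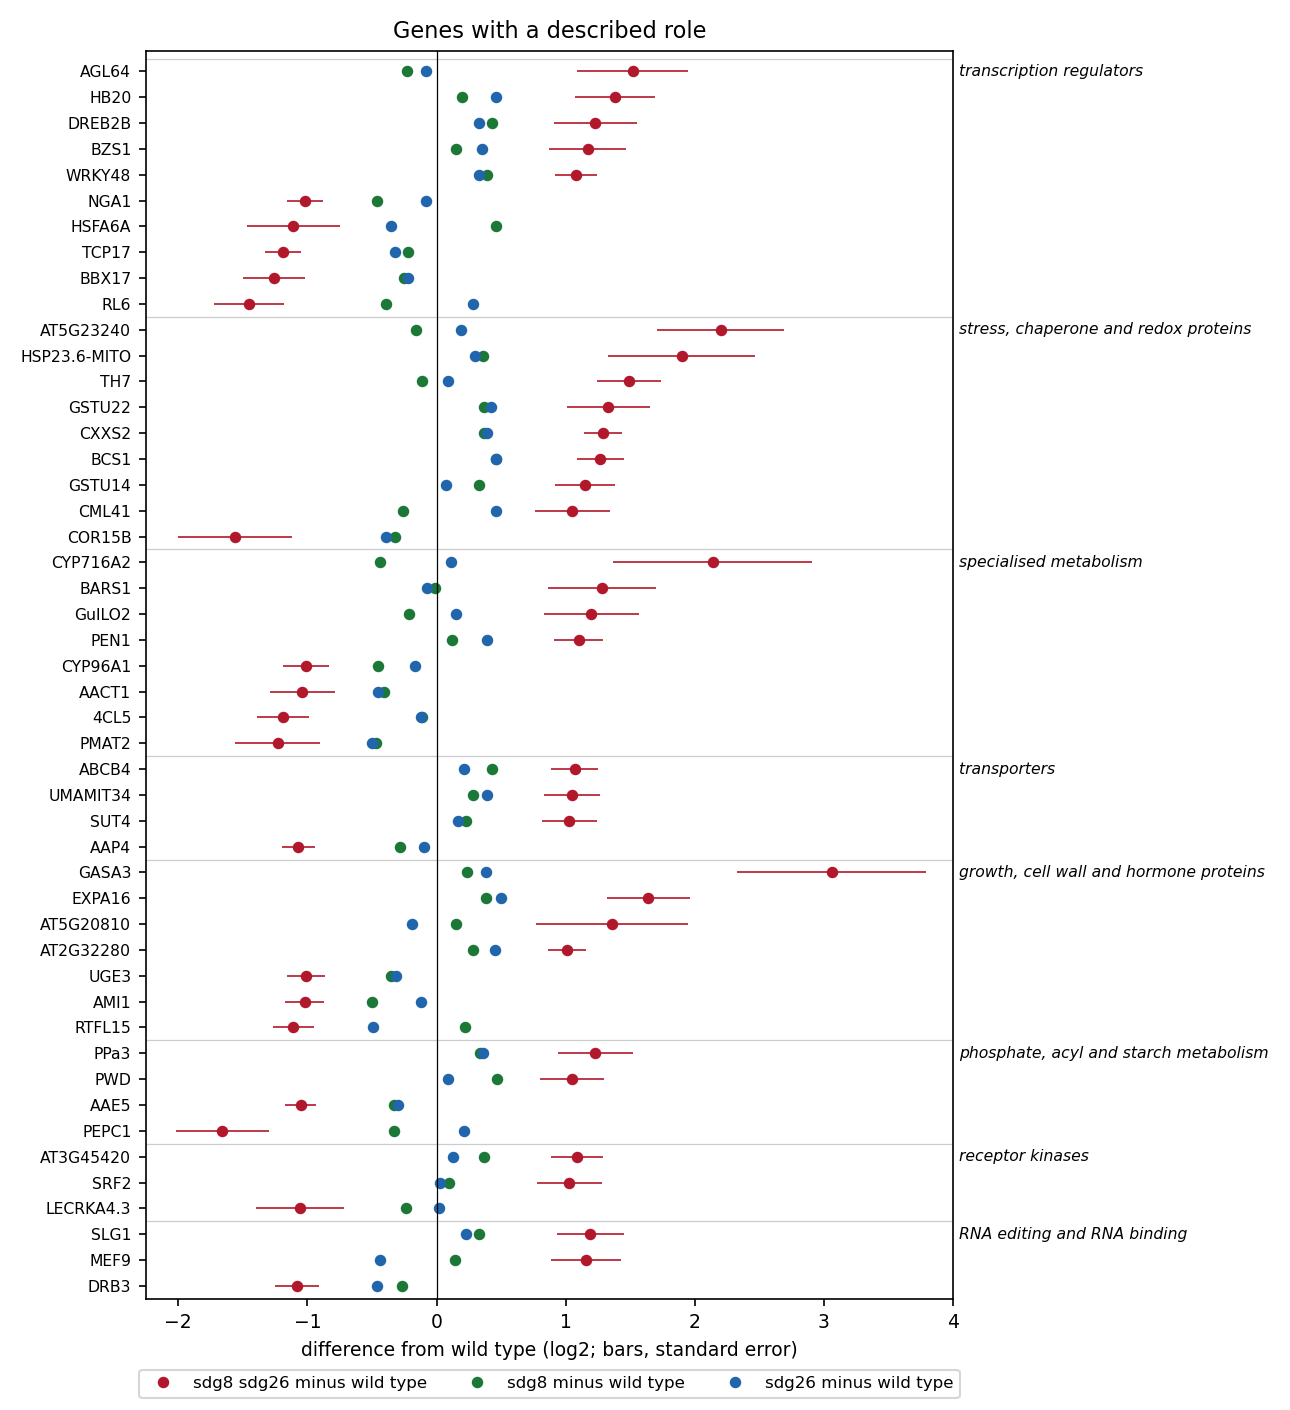
Differences from wild type (log2) of the 48 genes with a role, in sdg8 sdg26 (red, bars are standard errors of limma's fit), sdg8 (green) and sdg26 (blue), grouped by role. The red points lie at 1.01 or more in size, the others within 0.5 of 0, and the widest bars belong to CYP716A2 and GASA3.

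The genes were also looked up among lists of known pathways, taken as whole lists. Of 705 listed symbols in 38 lists 685 matched a locus, and 1 of the 138, COR15B, was matched to a list. PEPC1 stands in the phosphate starvation list as PECP1, a spelling that the matching by symbol missed, so it is not counted there. In limma's comparison of sdg8 sdg26 with wild type, adjusted over all genes tested, 20 of the 619 listed genes tested rose and 22 fell, spread over 22 lists, beside 3.06% and 3.19% of all genes. The NLR immune receptors, with 6 of 17, and the floral repressors, with 5 of 13, had the most genes that fell. Of these 6 receptors 3 kept their call without wild-type replicate 1, wild-type replicate 2, sdg8 sdg26 replicate 1 or sdg8 sdg26 replicate 2, and of the 5 repressors 3 kept it without wild-type or sdg8 sdg26 replicate 1. In sdg8 against wild type, limma called 5 genes of the receptor list and 4 of the repressor list lower. Between sdg8 sdg26 and sdg8 it called 0 genes of either list, so the falls are not read as particular to the double mutant. The 6 pathway lists given next were picked, with values known, for being nearest to the roles above. Of them, 1 of 19 cold and abscisic acid genes fell, the cold-response regulator CBF1 (-1.20 ± 0.19). Of 13 heat shock genes 1 fell, HSFB2A (-0.57 ± 0.13). Of 18 phosphate starvation genes matched and tested 1 rose, PHO1;H1, a phosphate exporter (0.95 ± 0.16). PEPC1, which belongs to this list but was not matched, was lower. Of 22 cell wall expansion genes 1 rose, XTR6 (0.85 ± 0.19), and of 19 gibberellin genes 1 rose, GA2OX2, which inactivates gibberellins (0.95 ± 0.16). Of 21 flavonoid and anthocyanin genes 0 passed, and 4 were higher and 2 lower at an unadjusted p under 0.05, where 13.9% of all genes were higher and 12.3% lower. The medians of these 6 lists were -0.30, -0.13, -0.15, -0.06, -0.05 and -0.09, beside 0.03 over all genes.

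The 8 lists of tissue markers were read in the same way. Of 10 shoot meristem and boundary markers 2 rose, STM (0.81 ± 0.12) and LOB (1.09 ± 0.18), with a list median of 0.35, and both lost their call without either wild-type replicate. Of 13 vascular markers 1 fell, SUC2 (-0.68 ± 0.12), which kept its call only when an sdg8 array was the one left out. In the guard cell, epidermis and trichome, mesophyll, and flower and pollen lists 0 genes passed in limma, and at an unadjusted p under 0.05 these lists had 3 higher and 3 lower genes in all. Of 15 root markers 4 rose, the root hair genes RSL4 (1.36 ± 0.28), EXPA7 (1.71 ± 0.28) and PRP3 (1.38 ± 0.23) and the endodermal CASP1 (0.97 ± 0.20), and the median of the list was 0.84. The mean level of the root list was -2.76 and -2.84 in sdg8 sdg26, against -3.22 and -3.25 in sdg8, -3.30 and -2.93 in sdg26 and -3.60 and -3.51 in wild type, so that the double-mutant arrays were above all others. Of 17 seed maturation markers 0 passed in limma, with 2 higher and 0 lower at an unadjusted p under 0.05, beside the same 13.9% and 12.3% of all genes. Their mean level was -1.94 and -4.06 in sdg8 sdg26, against -4.90 and -2.96 in sdg8, -4.77 and -3.10 in sdg26 and -0.84 and -3.16 in wild type. The replicates of each genotype thus differed by over 1.5 in this list. The part of either tissue in the differences of the 138 genes was not tested. Each of the 9 list genes named with its value, other than STM, LOB and SUC2, lost its call without wild-type replicate 1 (adjusted p = 0.0786 to 0.161 in limma) and without sdg8 sdg26 replicate 1 (0.0518 to 0.147).

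A second readout came from probes that the rule had not used. Of the 138 genes, 30 had 31 further probes, and 20 of these passed the same background flag as the rule. The flag admitted 4 of these 20 through the double mutant alone, which favours a higher reading there, so the count is kept to the 16 probes well above background on both wild-type arrays, 7 of higher and 9 of lower genes. All 16 had the sign of the brightest probe, 12 had at least 50% of its difference and 7 had a difference of at least 1. Their median difference, counted in the direction of the brightest probe, was 0.87, beside 1.12 for the brightest probes of the same genes. These probes read the same RNA on the same arrays and so are no new samples. The count covers the difference from wild type alone. At the other probe AT1G67865 differed by -0.64 in sdg26 and AMI1 by -0.53 in sdg8, past the limit of 0.5. The single mutants stayed under it at the rest of the 16. In AT1G19970, DRB3, AT5G42250, AT2G14080 and SUT4 the double-mutant arrays did not lie beyond all 6 other arrays.

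EXPA16 had 1.64 at its brightest and 1.25 at its other probe, and BBX17 had -1.26 and -1.36. AT5G13210 had 2.01 at the other probe and 1.26 at the brightest. The other probe of BCS1 was on neither wild-type array well above background and was at least 1.22-fold higher than in wild type. SUT4 had the weakest second reading, 0.17 beside 1.03, and DRB3 had -0.51 beside -1.08. Of the 11 dim probes 3 had the opposite sign, at AT2G16586, AT3G01345 and AT4G19510.

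**Figure D4:**
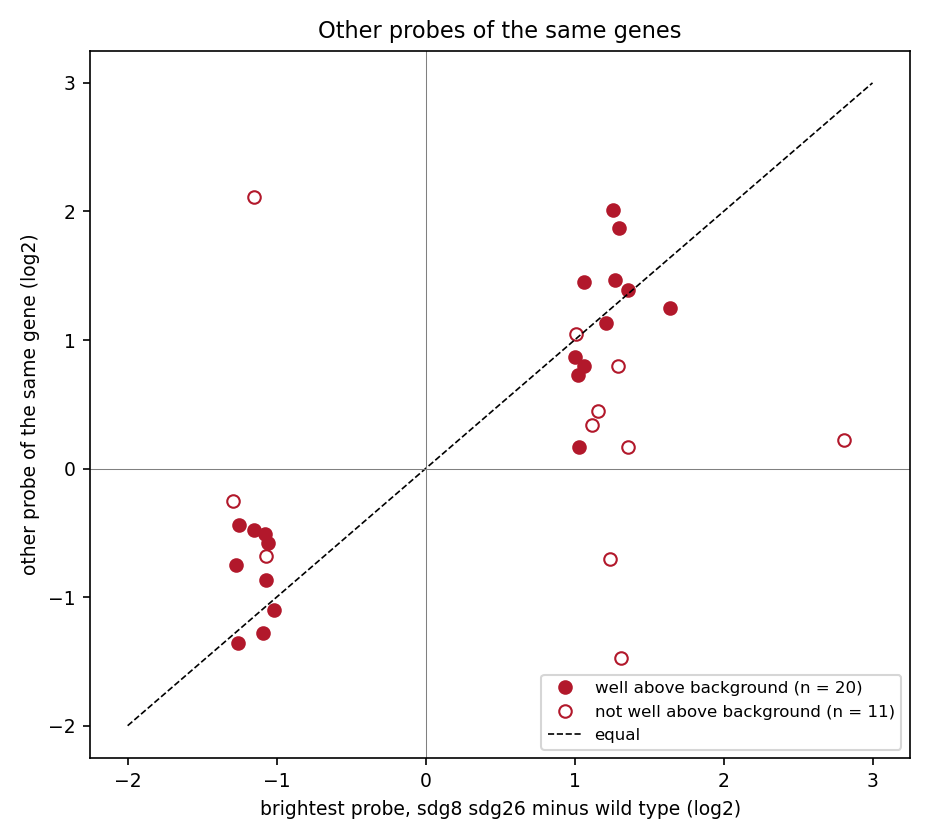
Difference of sdg8 sdg26 from wild type (log2) at the other probes of a gene (vertical) against its brightest probe (horizontal). The 20 filled points, well above background, lie on the side of the brightest probe, and 3 of the 11 open points, not well above background, lie on the opposite side.

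Several of the genes were neighbours in the order of the TAIR10.1 gene table, which was used for names and order alone. Allowing at most 9 genes between, 9 neighbouring pairs of the 138 were found. No such count was made for other sets of genes, so nothing is read from this number. The pair of AT3G15670 and AT3G15700 depends on AT3G15700, which rests on a single spot as described below. AT1G67860 and AT1G67865 were adjacent and both lower. AT1G67860 had levels of 1.17 and 1.09 in sdg8 sdg26, against 1.72 and 2.01 in sdg8, 1.96 and 2.09 in sdg26 and 2.02 and 2.4 in wild type (-1.09 ± 0.17). AT1G67865 had levels of 0.38 and 0.44 in sdg8 sdg26, against 1.68 and 1.73 in sdg8, 1.04 and 0.93 in sdg26 and 1.49 and 1.47 in wild type (-1.07 ± 0.11). In AT1G67865 sdg26 lay between the double mutant and the rest, which was not so for its neighbour.

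PPa3 and NGA1 were also adjacent but differed in sign, 1.23 ± 0.29 and -1.02 ± 0.14. PEN1 and BARS1 had 3 genes between them, of which 0 were tested. AT5G37940, AT5G37980 and AT5G38010 formed a run of 3 higher genes (1.04 ± 0.24, 1.34 ± 0.31 and 1.07 ± 0.12). Between them AT5G38000, which is not among the 138, differed by 1.65 ± 0.15 and lay 0.63 and 0.55 above wild type in sdg8 and sdg26. Near the end of that run AT5G38040, also not among the 138, differed by -1.76 ± 0.17, and by -2.31 in sdg8.

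GSTU22 and AT1G78400, with 6 genes between, were both higher. AT1G26350 and AT1G26420, with 7 between, differed in sign. Over the chromosomes the 138 genes spread much as all genes did: 27.5%, 16.7%, 18.8%, 14.5% and 22.5% lay on chromosomes 1 to 5, where 26.4%, 15.4%, 19.8%, 15.0% and 23.4% of the genes tested lie. All 138 were annotated as protein coding.

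Many of the higher genes were dim in the other genotypes. Of the 86, 26 (30.2%) were not well above background on both wild-type arrays, 32 on both sdg8 arrays and 14 on both sdg26 arrays, and 14 on all 6 other arrays, so 22 of them have a fold given as a bound, with a median bound of 1.59-fold. Over all genes tested the share below background on both arrays was 1.19% in sdg8 sdg26, 5.72% in sdg8, 0.427% in sdg26 and 4.06% in wild type. The flag was set more often on the fourth slide, with 77.1% to 78.9% of spots well above background on an array, than on the others, with 72.0% to 74.9%. The counts by genotype are therefore not compared. The rule also admits a gene dim in wild type only if it is bright in the double mutant, so these shares are not set against each other. All 52 lower genes were well above background in sdg8, sdg26 and wild type.

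The double-mutant arrays also lay further apart than their counterparts. The median gap between replicates of the 138 genes was 0.39 in sdg8 sdg26, against 0.25 in sdg8, 0.27 in sdg26 and 0.28 in wild type. Over all genes tested these gaps were 0.197, 0.169, 0.165 and 0.20. The sdg8 sdg26 arrays lay at least 1 apart in 25 genes, 17 of them higher and 8 lower, led by CYP716A2 (2.72), AT4G26770 (2.21) and AT5G20810 (2.11), and replicate 1 was the higher in 21 of the 25. Replicate 1 was above replicate 2 in 65.7% of the 137 genes with both values and in 57.4% of all genes tested. The gap to the nearest of the other arrays had a median of 0.475 and was under 0.2 in 21 genes.

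One of the 138 rests on a single spot. AT3G15700 stands at 6.41 in the authors' deposited table, from levels of -4.75 and 6.52 in sdg8 sdg26, against -5.91 and -5.87 in sdg8, -5.72 and -5.44 in sdg26 and -5.72 and -5.34 in wild type. The scanner file calls the spot of sdg8 sdg26 replicate 2 non-uniform. Without that spot the difference is 0.78 ± 0.22, from 1 double-mutant array, and the gene no longer meets the rule. AMI1, AT3G09430 and PMAT2 also fall just outside on the scanner values, which leaves 134. Each lay within 0.002 of a limit, less than the constant offset between both scalings.

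At the limit of 1, the genes just inside were AT3G09430 (1.00024), AT4G35110 (-1.00248) and AT2G22420 (-1.00421) in the authors' deposited table. Those just outside were AT5G36320 (0.99986), AT3G01260 (0.999315) and AT1G35350 (-0.9993). At the limit of 0.5, AMI1 (-0.499877), PMAT2 (-0.499705) and AT3G51360 (0.49872) were just inside and AT2G01900 (0.501951), DRNL (0.507346) and AT3G13610 (0.50736) just outside.

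**Figure D5:**
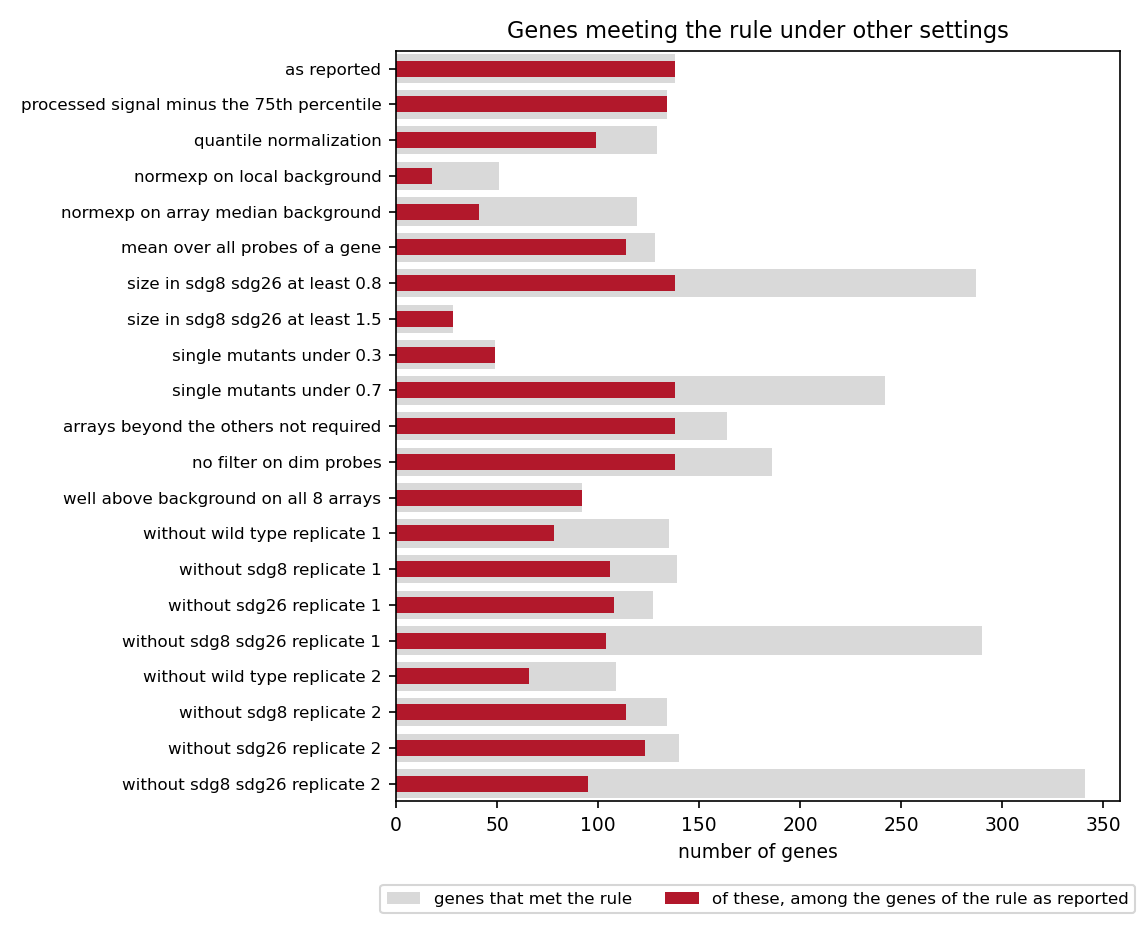
Number of genes that met the rule under each setting (grey bars) and how many of them are among the 138 (red bars). Quantile normalization kept 99 of the 138, normexp on the array's median background 41 and on the local background 18, and leaving out 1 array kept 66 to 123.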

How the data were processed

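RNA of 8 samples was hybridised to 8 single-colour arrays. The sample titles give each array its genotype and replicate. The members, roles and gene lists were chosen with earlier results of these data known. Per the file headers, the authors obtained each spot intensity with Feature Extraction 11.5.1.1, which also subtracted the background to give the processed signal. The submitters' processing notes name version 9.1. A deposited table holds the authors' log2 values, which on each array differed from log2 of the processed signal by nearly 1 constant. The table's column medians ran from -2.37 to -2.29, and its scale, centring and direction follow from that comparison.

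The rule was applied to the authors' deposited log2 table. Levels, differences and standard errors come from the processed signal on the log2 scale, scaled to the 75th percentile of each array's non-control spots, with non-uniform spots missing and spots of a probe averaged. Of 43603 probes, 34285 matched a locus of the TAIR10.1 table by RefSeq accession. A gene was tested where 1 genotype or more had both arrays flagged well above background at its brightest probe, which left 20620 genes. Differences were tested, two-sided, with limma 3.58.1 (R 4.3.3, statmod 1.5.0). The 4 genotypes shared 1 linear model, and p-values were adjusted by Benjamini-Hochberg within each comparison. The comparisons included sdg8 and sdg26 against wild type. Signals in bounds used the background flags of the scanner files.

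Precision is limited by having 2 arrays a genotype and, for dim probes, by the background. Arrays of 1 genotype correlated at 0.985 for sdg8 sdg26, 0.989 for sdg8, 0.991 for sdg26 and 0.987 for wild type. The median standard error of a difference was 0.167. On simulated data for sdg8 sdg26 against wild type, with 200 of 20497 genes changed, 46.5%, 77.2% and 93.1% were recovered at log2 changes of 1, 2 and 3, with 5 false calls. The simulation drew independent noise with no slide effect and changed a smaller share of genes than was called here. Its figures describe that setting alone.

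Genes named with values on every array are the 12 largest differences in each direction, genes with a role, neighbouring genes and list members, for the clearest cases in full and otherwise by their difference. Normexp used the median spot intensity in place of a mean, with an offset of 50. Alternatives were the deposited table, quantile and normexp values, other filters, limits and probes, a slide or replicate block, and each array left out in turn. Promoter motifs, protein lengths and probe sequences were not analysed here.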

Additional observations from a re-analysis of the deposited data

Results flagged for a closer look

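Of the genes tested in limma, 1 had an interaction that passed Benjamini-Hochberg adjustment over all genes, which means that its double-mutant difference departed from the sum of the single-mutant differences. This was MRD1 (AT1G53480), which is not among the 138. Its interaction was 3.90 ± 0.244 (SE, adjusted p = 0.0245), from differences from wild type of -2.87 in sdg8 sdg26, -2.91 in sdg8 and -3.86 in sdg26. The call was lost without sdg26 replicate 2 (adjusted p = 0.0873), with a replicate block (0.164) and with no filter on dim probes (0.122), and the adjusted p lay between 0.00423 and 0.164 over the alternatives.

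Outside the comparisons, 47 of the 9318 probes with no matched locus met the rule on their own values in the authors' deposited table. Of these 42 were higher and 5 lower in sdg8 sdg26, with differences from wild type of -1.70 to 2.80. They have no gene name here.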

How the results depend on the processing

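The number of genes that met the rule followed its limits. With a limit of 0.8 in the double mutant there were 287 (162 higher, 125 lower) and with 1.5 there were 28 (25 and 3). With single mutants under 0.3 there were 49 (30 and 19) and under 0.7 there were 242 (148 and 94). Normexp on the local background gave 51, of which 16 were higher, normexp on the median background gave 42 higher genes, and a flag on all 8 arrays gave 41 higher genes. Leaving out 1 array at a time gave 109 to 341 genes, 70 to 307 higher and 34 to 152 lower. Over the deposited table, quantile and normexp values and the mean over all probes, the difference kept its sign in each gene but AT2G16586 and AT4G19510. With the mean over all probes these stood at -0.08 and 0.16, where a dim probe had the opposite sign. With 1 array left out the sign is fixed, since the rule puts both double-mutant arrays beyond the other 6. AT3G15700 then has no difference without sdg8 sdg26 replicate 1. The counts of genes called in limma also depended on the processing. Normexp on the local background gave 2639 genes against wild type, 735 against sdg8, 297 against sdg26 and 2 for the interaction. On the median background these were 2565, 362, 405 and 3, and quantile normalization gave 2 for the interaction. With no filter they were 727, 0, 263 and 0, the flag on all 8 arrays gave 23 against sdg8, and only the 4 arrays compared gave 497, 0 and 170 for the comparisons with wild type, sdg8 and sdg26. Leaving out 1 array gave 480 to 847 against wild type, 17 to 368 against sdg8, 145 to 502 against sdg26 and 0 to 110 for the interaction. The cause was not tested.

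The replicate numbers showed no pairing common to all genotypes, since the correlations of equal-numbered deviations ran from -0.402 to 0.388 over 6 pairs of genotypes. Whether some arrays of different genotypes share an RNA set or batch cannot be told from these correlations. With a replicate block limma called 900 genes against wild type, 36 against sdg8, 318 against sdg26 and 0 for the interaction. A count of 0 here is after adjustment: as reported, 925 genes had an unadjusted p under 0.05 for the interaction and 2840 against sdg8. A fit that leaves 1 array in a genotype assumes that this array varies like the rest, and the few arrays and dim signals limit all these counts.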
